A study of Homo sapiens with 4 samples.

Results

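Aminoacyl-tRNA synthetases join each amino acid to its own tRNA and thereby supply the ribosome with charged tRNA. Human cells hold a cytosolic set and a separate mitochondrial set, both encoded in the nucleus, and the genes for glycine (GARS1) and lysine (KARS1) each make an enzyme for both compartments. Several cytosolic enzymes are held in a large assembly called the multisynthetase complex. When amino acids run short or the endoplasmic reticulum is stressed, phosphorylation of the initiation factor eIF2 alpha favours translation of the transcription factor ATF4, and several cytosolic synthetase genes are known targets of ATF4.

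The synthetase genes were chosen by name. A gene was a member if its symbol was the one-letter code of an amino acid (or EP) followed by ARS, with 1, 2, A, B or no letter at the end, and 36 of the 60623 genes met this rule. Names ending in 2 were taken as mitochondrial (17 genes) and the remaining 19 as cytosolic or dual, of which 2 were dual. The tables used older symbols for 17 of them (AARS for AARS1, for example), and the members lay on 14 chromosomes. The pattern did not match EPRS1, the joint glutamate and proline enzyme, or TARS3, a relative of the threonine enzyme, which the tables list under older names. These 2 genes are described apart from the members.

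Poly(A) RNA was sequenced from BICR10, an established human head and neck cancer cell line, after lentiviral transduction with a control hairpin (shControl, 2 libraries) or with hairpin plasmid against YEATS2 (shYEATS2, 2 libraries). YEATS2 encodes a histone reader protein, and both groups share the cell line, the viral delivery and the culture conditions. The study used a pair of YEATS2 hairpins whose names end in 1 and 2, and a single control hairpin. The library names of both groups, shControl and shYEATS2, end in 1 and 2. The labels do not say whether the shYEATS2 libraries carry the same hairpin or different ones. The study's general statement is that replicates were biological, but the labels do not say whether libraries of a group came from separate cultures, so p-values measure only the spread between these libraries, which may be technical. The comparison asks how synthetase mRNA levels differed between YEATS2-silenced and control cells.

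YEATS2 itself stood at 66.1 and 66.6 CPM (counts scaled to the library total and normalized with TMM) in shControl and at 29.2 and 29.1 in shYEATS2, a log2 fold change of −1.19 ± 0.08 (standard error). Counts on genes totalled 11334133 to 47297970 per library, and both shYEATS2 libraries were shallower than both shControl libraries. Synthetase counts made up 0.360 to 0.368% of gene counts in shControl and 0.510 to 0.515% in shYEATS2. Of 17058 genes tested with edgeR's quasi-likelihood test, 3858 were higher (22.6%) and 4019 lower (23.6%) in shYEATS2 at a Benjamini-Hochberg adjusted p under 0.05, so a large share of the transcriptome differed. With library totals in place of TMM the split was 5441 higher and 2571 lower, and the median gene moved from a log2 fold change of −0.01 to 0.13. Each fold change below is on the TMM scale and is to be read against that median.

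Marker lists were read in the same libraries, and whether their levels match the labelled cell line was not tested. Summed levels of 10 squamous epithelial markers were 87.8 to 89.6 CPM in shControl and 10.4 to 11.3 CPM in shYEATS2, with 6 of the 8 tested markers lower, CDH1 higher (a mean of 0.335 CPM in shControl and 2.48 CPM in shYEATS2), DSG3 not called and TP63 at 0 to 0.254 CPM across the libraries. KRT6A (a mean of 56.5 CPM) and KRT5 (15.7 CPM) made up most of the squamous sum in shControl. KRT14 (1.21 CPM), EPCAM (1.01 CPM) and KRT17 (0.330 CPM) were low there. Summed levels of 8 fibroblast-associated genes, 3 of them collagens, were 7204 to 7295 CPM in shControl and 2221 to 2361 CPM in shYEATS2, with 7 of 8 lower. The 6 leukocyte markers summed to 0.907 to 1.92 CPM, with CD3E and CD68 at 0 in all libraries. The 5 endothelial markers summed to 35.6 to 36.6 CPM in shControl and 18.9 to 20.2 CPM in shYEATS2, nearly all of it KDR, which was lower, while TEK was higher, PECAM1 was not called and CDH5 was at 0 to 0.022 CPM. Most of the squamous and fibroblast-associated genes, and KDR, were thus lower in shYEATS2. The part that these changes have in the synthetase results was not tested. In bulk RNA, fewer cells of a type and less RNA per cell cannot be told apart.

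The promoters of some synthetases carry a sequence that ATF4 is known to bind together with C/EBP partners. These are shown because AARS1 and GARS1, the members that rose most in shYEATS2, are among them. SARS1 and YARS1 rose next most, but SARS1 had no match and YARS1 had no promoter entry. The pattern searched was TGATGNAA or its reverse complement TTNCATCA, in windows from 250 bases before to 50 bases after each RefSeq gene start (GRCh38.p14), on both strands, and no other motif was searched. It occurred in 8 of the 29 members with a promoter entry. Each stretch below is 30 bases long, reads 5′ to 3′ along the gene's own strand, and has the matched letters in capitals.
AARS1 (chr16:70289675-70289704, minus strand): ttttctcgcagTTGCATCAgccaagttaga
CARS1 (chr11:3057407-3057436, minus strand): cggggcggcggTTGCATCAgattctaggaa
GARS1 (chr7:30594834-30594863, plus strand): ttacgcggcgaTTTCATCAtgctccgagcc
IARS1 (chr9:92293692-92293721, minus strand): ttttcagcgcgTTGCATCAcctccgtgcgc
MARS1 (chr12:57488053-57488082, plus strand): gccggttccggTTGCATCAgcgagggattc
TARS1 (chr5:33440956-33440985, plus strand): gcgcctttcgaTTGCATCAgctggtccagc
NARS1 (chr18:57621804-57621833, minus strand): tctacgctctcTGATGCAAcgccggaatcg
YARS2 (chr12:32756076-32756105, minus strand): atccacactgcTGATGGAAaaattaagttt

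The letters TTGCATCA occurred in AARS1, CARS1, IARS1, MARS1 and TARS1, while GARS1 differed from them by TTTCATCA. Counted from the RefSeq gene start, with bases before it negative, the match began at −2 in CARS1, −4 in MARS1, −13 in IARS1, −33 in GARS1, 2 in TARS1 and 14 in NARS1. In AARS1 and YARS2 the match lay farther upstream of that start, at −187 and −197. The gene positions given below are from GENCODE, whose starts can differ. Every match but that of YARS2 lies inside the GENCODE bounds of its gene. The GARS1 gene starts at 30580533 in GENCODE and its stretch at 30594834, and MARS1 starts at 57475445 and its stretch at 57488053. Among cytosolic or dual members, 7 of 15 promoters held a match (46.7%), against 1 of 14 mitochondrial promoters (7.1%) and 1217 of all 27305 genes in the promoter table (4.5%). Counted by window, since some genes have several starts, a match was in 7 of 20 cytosolic or dual windows, 1 of 18 mitochondrial windows and 1270 of all 35116 windows. AARS2, LARS1, VARS1, VARS2 and YARS1 were among the 7 members with no entry. A match describes letters only and was not tested as a site.

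In shControl cells the cytosolic set lay above the mitochondrial set. Per kilobase of canonical transcript, the median level was 57.8 CPM per kb for the 19 cytosolic or dual members and 7.36 CPM per kb for the 17 mitochondrial members, a ratio of 7.84. Per kilobase of all annotated exons the same ratio was 6.12. Both ratios count SARS2 and VARS2 among the mitochondrial members, although these could not be read as levels, as described below. They stood at 0.662 and 0.00678 CPM per kb of canonical transcript. By canonical transcript GARS1 was highest at 140 CPM per kb, followed by TARS1 (125), NARS1 (103) and KARS1 (95.8). FARSB, a subunit of the phenylalanine enzyme, was then the lowest cytosolic member at 13.5 CPM per kb. Among mitochondrial members IARS2 (56.3) and CARS2 (52.4 CPM per kb) stood above the rest on that length. These 2 genes made up 49.6% of the summed mitochondrial CPM in shControl. The spread between highest and lowest, by canonical transcript, was 10.4-fold in the cytosolic set. The order depended on the length used. Per kilobase of all annotated exons TARS1 was highest (78.7), GARS1 stood at 19.7 and CARS1 was the lowest cytosolic member (7.57). On that length IARS2 stood at 48.1, and CARS2 (9.24) lay below HARS2 (9.41).

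SARS2 and VARS2 could not be read as levels. VARS2 had too few counts to be tested, with 0 to 0.158 CPM, and SARS2 stood at 0.872 to 1.67 CPM. In GENCODE release 44, 63.0% of the exon bases of VARS2 are shared on the same strand with the read-through gene ENSG00000288473, and 48.2% of those of SARS2 with ENSG00000269547. Of all 100-base stretches of the transcript, 94.4% and 76.4% respectively also occur in those genes. HTSeq sets aside read pairs that fall on more than 1 gene, and both read-through genes held 0 to 2 counts per library. How much of the low counts this accounts for was not tested.

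**Figure D1:**
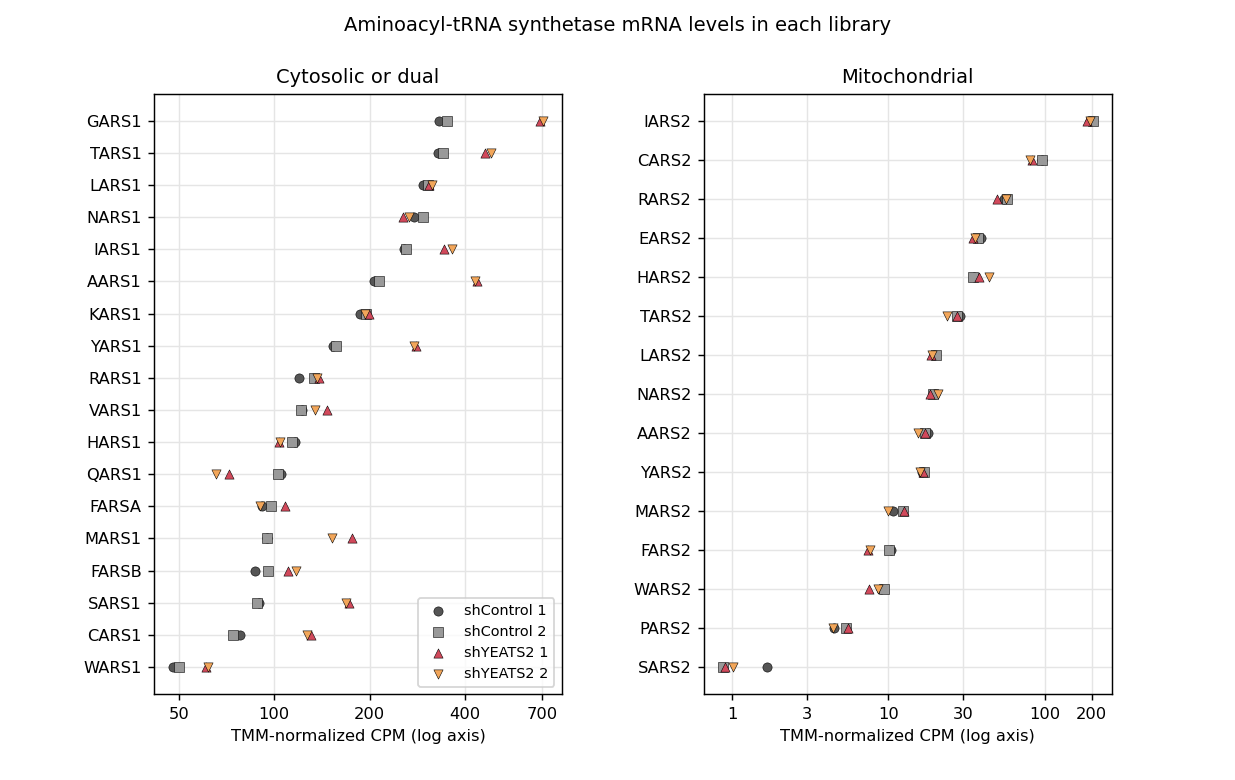
Level of 33 tested synthetases in each of the 4 libraries, as TMM-normalized CPM on a log axis, with cytosolic or dual members on the left and mitochondrial members on the right, ordered by the shControl mean. Both shYEATS2 libraries lie to the right of both shControl libraries for 13 of the 18 cytosolic or dual members shown, while most mitochondrial members have all 4 libraries close together.

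Upon silencing of YEATS2, cytosolic synthetase mRNAs were mostly higher. Of the 19 cytosolic or dual members, 11 were higher and 3 lower, beside 22.6% higher and 23.6% lower among all tested genes (46.2% called in either direction), and 5 did not pass the test. Log2 fold changes in this set ran from −0.59 to 1.04 around a median of 0.31, where all tested genes had a median of −0.01 and quartiles of −0.31 and 0.32. Both shYEATS2 libraries were above both shControl libraries for 13 members and below for 4, beside 35.3% and 36.3% of all tested genes (71.6% in either direction). The mitochondrial set looked different. Of its 16 tested members 1 was higher and 3 were lower, 12 did not pass the test, and the median log2 fold change was −0.10 (0.039 with library totals, where the median of all genes was 0.13). With library totals the calls were 15 higher and 2 lower in the cytosolic or dual set and 1 higher and 1 lower in the mitochondrial set.

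AARS1 and GARS1 changed most. AARS1 (chr16:70251983-70289707), the alanine enzyme, stood at 207 and 214 CPM in shControl and at 438 and 431 CPM in shYEATS2. The groups were far apart, with a log2 fold change of 1.04 ± 0.06 (SE) and an adjusted p of 1.6e-24. GARS1 (chr7:30580533-30634033), the glycine enzyme of both compartments, rose from 332 and 352 CPM to 688 and 707 CPM, a log2 fold change of 1.03 ± 0.06 (adjusted p = 2.4e-24). These were the 2 members that at least doubled, beside 5.99% of all tested genes that were called and at least doubled. No member was called with a fall of 2-fold or more, beside 3.7% of all tested genes. KARS1, the other dual gene, served as a contrast with 186 and 195 CPM in shControl and 199 and 193 CPM in shYEATS2. Its groups overlapped, at a log2 fold change of 0.04 ± 0.06 (adjusted p = 0.60).

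Another 4 members rose by 1.70-fold to 1.92-fold. SARS1 (chr1:109213918-109238182), the serine enzyme, was at 89.4 and 88.3 CPM in shControl and at 173 and 168 CPM in shYEATS2, a log2 fold change of 0.94 ± 0.06 (adjusted p = 6.5e-21). YARS1 (chr1:32775237-32818031), the tyrosine enzyme, was at 154 and 157 against 280 and 275 CPM, a log2 fold change of 0.84 ± 0.06 (adjusted p = 1.5e-19). In both, the gap between groups was many times the spread within a group. MARS1 (chr12:57475445-57517569), the methionine enzyme that also charges the initiator tRNA, was at 94.6 CPM in both shControl libraries and at 176 and 152 CPM in shYEATS2, a log2 fold change of 0.80 ± 0.07 (adjusted p = 8.5e-17). CARS1 (chr11:3000922-3057613), the cysteine enzyme, was at 77.9 and 74.0 against 131 and 127 CPM, a log2 fold change of 0.77 ± 0.06 (adjusted p = 3.0e-16). The shYEATS2 libraries of MARS1 differed more from each other than those of the other members named so far, and still lay above both shControl libraries.

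For MARS1, 12.4% of the exon bases are covered on the opposite strand by ARHGAP9 and DDIT3. DDIT3, which encodes the stress factor CHOP and is named here for this overlap after its values were seen, rose by 36.3 CPM, from 12.0 and 11.7 to 49.4 and 47.0 CPM. The library kit marked strand, but the strand setting of the counting is not given in the sources used here, and the part of DDIT3 reads in the MARS1 count was not tested. Exon bases of 20 members are shared with a gene on the opposite strand, with larger shares for YARS2 (18.1%), MARS1 and WARS1 (10.6%).

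TARS1 and IARS1 rose less. TARS1 (chr5:33440696-33468091), the threonine enzyme, moved from 329 and 341 CPM to 463 and 485 CPM, a log2 fold change of 0.50 ± 0.06 (adjusted p = 5.0e-11). FARSB, the beta subunit of the phenylalanine enzyme, was at 87.2 and 95.8 CPM in shControl and at 111 and 117 CPM in shYEATS2, a log2 fold change of 0.31 ± 0.07 (adjusted p = 6.5e-05). FARSA, the alpha subunit of the same enzyme, had overlapping groups and did not pass the test (0.08 ± 0.07), although its value was 0.19 without shYEATS2 library 2 (adjusted p = 0.0033) and −0.083 without shYEATS2 library 1 (adjusted p = 0.32). The remaining members called higher were IARS1 (isoleucine, log2 fold change 0.45), WARS1 (tryptophan, 0.33) and VARS1 (valine, 0.21). The call of VARS1 was lost when shControl 1, shControl 2 or shYEATS2 1 was left out, with values of 0.13 to 0.21 and adjusted p of 0.073 to 0.089.

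QARS1 and HARS1 were among the cytosolic members that went the other way. QARS1 (chr3:49095932-49105130), the glutamine enzyme, was at 105 and 103 CPM in shControl and at 71.9 and 65.4 CPM in shYEATS2, a log2 fold change of −0.59 ± 0.07 (adjusted p = 2.8e-11) and the lowest value among all tested members. Its groups did not overlap, and the call held in every alternative fit. HARS1, the histidine enzyme, was at 116 and 114 against 104 and 104 CPM, a log2 fold change of −0.15 ± 0.06 at an adjusted p of 0.048. That call was lost without shControl 1 (−0.14, adjusted p = 0.27) and without shControl 2 (−0.17, adjusted p = 0.17), and with library totals the value was −0.017 (adjusted p = 0.84). NARS1, the asparagine enzyme, was at −0.13 ± 0.06 and did not pass (adjusted p = 0.064), but passed without shYEATS2 library 2, at −0.17 (adjusted p = 0.0080), and under the replicate block.

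**Figure D2:**
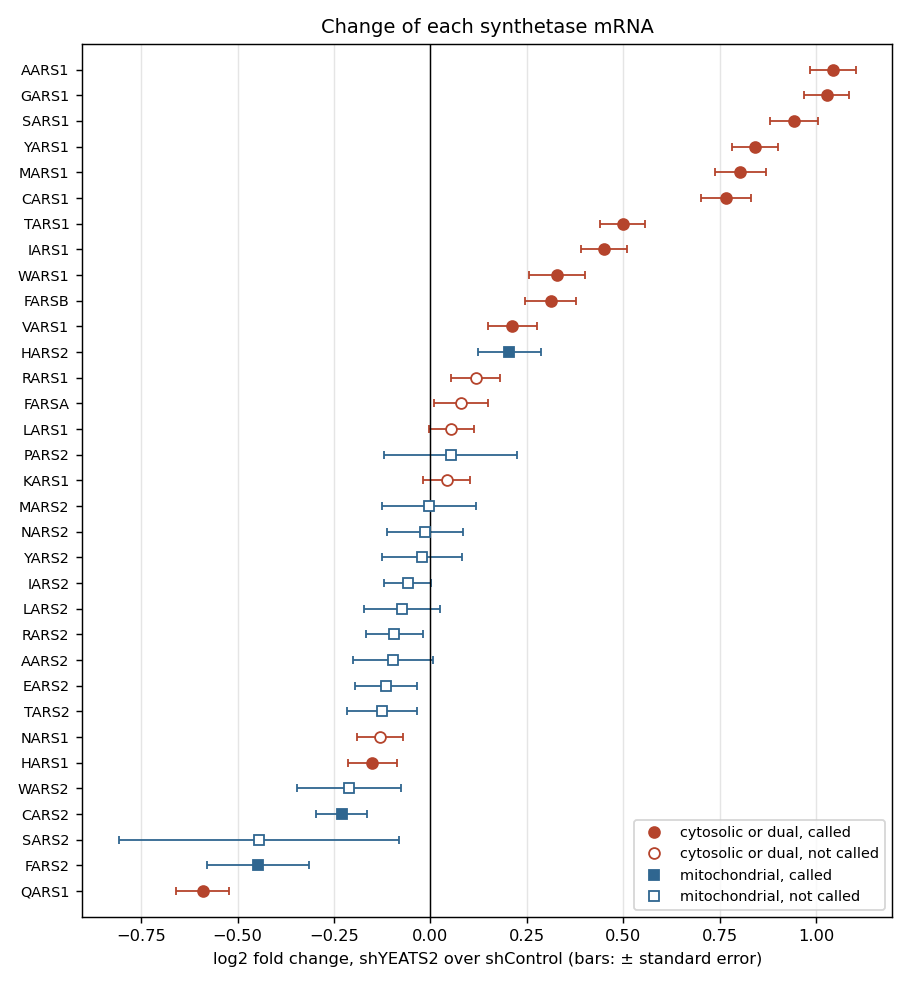
Log2 fold change (shYEATS2 over shControl) of 33 tested synthetases, ordered by size, with bars of 1 standard error; circles are cytosolic or dual, squares mitochondrial, and filled symbols passed the edgeR test. All 11 cytosolic members called higher lie above HARS2, the highest mitochondrial member at 0.20, and QARS1 is lowest at −0.59.

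Members of the multisynthetase complex were also read apart from the other cytosolic members. Of the 7 members in the complex, beside 22.6% higher and 23.6% lower among all tested genes, 2 were higher (IARS1, MARS1), 2 were lower (QARS1 among them) and 3 were not called (KARS1, LARS1, RARS1), with a median log2 fold change of 0.05. Outside it, 9 of 12 were higher and 1 was lower, with a median of 0.41. The summed level in the complex was 1228 and 1276 CPM in shControl and 1379 and 1368 CPM in shYEATS2, a ratio of 1.10, and outside it 1931 and 2001 against 2958 and 2967 CPM, a ratio of 1.51. The difference between these sets was not tested. EPRS1, which also belongs to the complex, was at 363 and 379 CPM in shControl and at 447 and 483 CPM in shYEATS2, a log2 fold change of 0.33 ± 0.06 (adjusted p = 3.6e-06). The scaffold genes AIMP1, AIMP2 and EEF1E1, which hold the complex together, had log2 fold changes of 0.10, 0.12 and −0.05. None passed the test by edgeR, limma-voom or DESeq2 (which called 16.5% of all tested genes higher and 17.3% lower), and 0 had an unadjusted p under 0.05.

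Members were also divided by a list of ATF4 targets, hand-written from general knowledge. It was drawn up with earlier results of these data known, so counts over it are descriptions. Beside the same 22.6% higher and 23.6% lower among all tested genes, 9 of the 11 cytosolic or dual members on that list were higher and none lower, with a median log2 fold change of 0.77, while LARS1 (0.05) and NARS1 (−0.13) did not pass. DESeq2 and limma-voom also called 0 of them lower, and 1 (NARS1) was lower at an unadjusted p under 0.05 by edgeR. Of the 8 members off the list, 2 were higher (FARSB, VARS1) and 3 lower, with a median of 0.06. The summed level of the listed members was 2160 and 2231 CPM in shControl and 3318 and 3352 CPM in shYEATS2, a ratio of 1.52, and that of the others was 999 and 1045 against 1019 and 983 CPM, with overlapping groups (a ratio of 0.980, and of 1.07 with library totals). Of the promoters shown above, 6 belong to the 9 members called higher that had an entry. They were shown with these calls known, so this count is a description and was not tested. The motif was also present in NARS1, which was not called, and absent from the windows of SARS1 and WARS1, which were. Both enzyme classes were represented among the risers, with 6 of 9 class I members and 5 of 10 class II members higher (22.6% of all tested genes) and medians of 0.33 and 0.20.

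FARS2 and CARS2 were among the 3 mitochondrial members called lower. FARS2, the phenylalanine enzyme of mitochondria, was at 10.4 and 10.1 CPM in shControl and at 7.41 and 7.63 CPM in shYEATS2, a log2 fold change of −0.45 ± 0.13 (adjusted p = 0.0039), and DESeq2 did not call it (adjusted p = 0.060). CARS2, the cysteine enzyme, was at 95.9 and 96.9 against 83.5 and 80.5 CPM, a log2 fold change of −0.23 ± 0.07 (adjusted p = 0.0030). The groups of both genes were separate, but CARS2 lost its call with library totals (−0.10) and without shControl 2 (−0.23, adjusted p = 0.058).

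HARS2, the histidine enzyme of mitochondria, was the one called higher. It was at 35.3 and 34.7 CPM in shControl and at 37.8 and 43.8 CPM in shYEATS2, a log2 fold change of 0.20 ± 0.08 (adjusted p = 0.034). The shYEATS2 libraries lay above both controls but differed from each other by more than the nearer of them differed from the controls. Without shYEATS2 2 the value was 0.10 (adjusted p = 0.28), and the call was also lost without shControl 1 (0.21, adjusted p = 0.16) or shControl 2 (0.19, adjusted p = 0.21). The 12 uncalled mitochondrial members ranged from −0.44 (SARS2, with a standard error of 0.36) to 0.05 (PARS2), and 11 of them lay below 0 on the TMM scale. RARS2 was at −0.19 without shYEATS2 2 (adjusted p = 0.015) but at 0.0013 without shYEATS2 1, and TARS2 was at −0.27 without shYEATS2 1 (adjusted p = 0.029) but at −0.049 without shYEATS2 2. Both shYEATS2 libraries were below both shControl libraries for 8 of the 16 tested members and above for 1, beside 36.3% and 35.3% of all tested genes.

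Summed over members, cytosolic or dual synthetase mRNA was higher in both shYEATS2 libraries, while the direction of the mitochondrial sum depended on the scaling. The cytosolic sum was 3159 and 3277 CPM in shControl and 4337 and 4335 CPM in shYEATS2, a ratio of 1.35. The mitochondrial sum was 588 and 602 against 552 and 566 CPM, a ratio of 0.939. With library totals alone, a setting added after seeing the data, the ratios were 1.48 and 1.03. In each sum the groups did not overlap on either scale, and with 2 libraries against 2 an exact permutation test cannot give a two-sided p below 0.333. GARS1 added 355 CPM and AARS1 223 CPM to the net cytosolic rise of 1118 CPM, together 51.8% of it, from 17.2% of the shControl level. Without these 2 genes the cytosolic sum was 2665 CPM in shControl and 3204 CPM in shYEATS2, a ratio of 1.20. The cytosolic to mitochondrial ratio was 5.37 and 5.44 in shControl and 7.86 and 7.66 in shYEATS2, and this ratio within a library does not depend on the scaling.

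**Figure D3:**
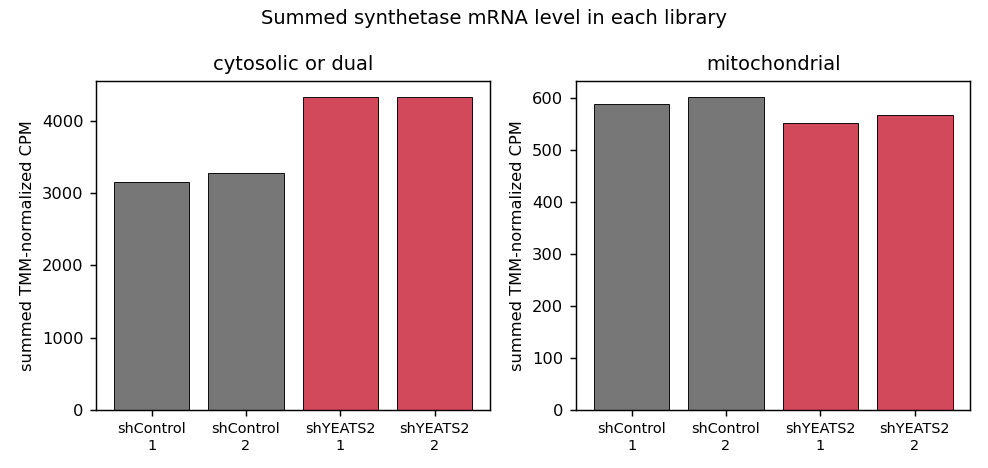
Summed TMM-normalized CPM of the cytosolic or dual members (left) and the mitochondrial members (right) in each library, with both axes starting at 0. The cytosolic sums are 3159 and 3277 CPM in shControl and 4337 and 4335 CPM in shYEATS2, and the mitochondrial sums are 588, 602, 552 and 566 CPM in the same order, lower in shYEATS2 on this scale and higher with library totals (ratio 1.03).

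The enzymes for 1 amino acid in both compartments were set side by side, in 16 pairs over 15 amino acids, of which 15 pairs had both genes tested. The cytosolic change lay above the mitochondrial change in 12 pairs and below it in 3 (among them NARS1/NARS2 and HARS1/HARS2), and the median difference was 0.54 on the log2 scale. Setting aside SARS1/SARS2, whose mitochondrial partner had few countable reads, the widest differences were in AARS1/AARS2 (1.14 ± 0.12, SE), CARS1/CARS2 (0.997 ± 0.093) and YARS1/YARS2 (0.86 ± 0.12). For cysteine the order of the counts, not scaled by length, turned round. The log2 ratio of CARS1 to CARS2 counts was −0.30 and −0.39 in shControl and 0.65 and 0.66 in shYEATS2. Per kilobase of canonical transcript, CARS1 stood at 27.8 and CARS2 at 52.4 CPM per kb in shControl. In shYEATS2 they were near each other on that length, at 47.2 and 44.6 CPM per kb. Opposite calls occurred in 3 pairs, with the cytosolic gene higher and the mitochondrial gene lower in CARS1/CARS2 and FARSB/FARS2, and the reverse in HARS1/HARS2, whose calls were both near the threshold.

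**Figure D4:**
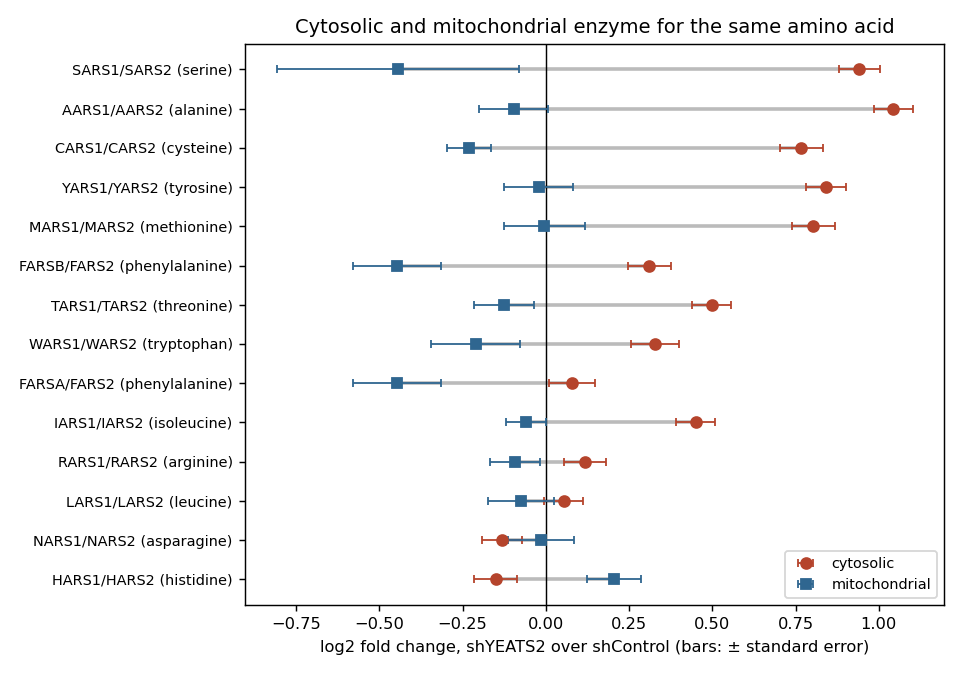
Log2 fold change (shYEATS2 over shControl) of the cytosolic gene (circle) and the mitochondrial gene (square) for the same amino acid, with bars of 1 standard error, in 14 pairs with both genes tested. The pairs are ordered by the difference, which is positive in 12 and negative in the 2 at the bottom.

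HARS1 and HARS2 lie head to head on chromosome 5, and their annotated starts overlap by 107 bases. HARS1 (chr5:140673035-140691537) reads from the minus strand and HARS2 (chr5:140691430-140699305) from the plus strand. Read 5′ to 3′, their transcripts share no stretch of 100 bases, but the reverse complement was not compared. On the opposite strand, 2.9% of the exon bases of HARS2 are shared with HARS1. What part of the reads fell on this overlap was not tested. In all, 11 members have a neighbour that starts within 1000 bases on the opposite strand, which makes 10 gene pairs. Both genes were called in 3 of these, among them AARS1 and the RNA helicase gene DDX19B, both higher (1.04 and 0.40), and HARS1 and HARS2, in opposite directions. One gene alone was called in 4 pairs and neither in 3. These counts stand beside 46.2% of all tested genes called in either direction.

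TARS3, the relative of TARS1, was at 11.9 and 12.6 CPM in shControl and at 9.23 and 9.24 CPM in shYEATS2, a log2 fold change of −0.41 ± 0.12 (adjusted p = 0.0040). Its direction was thus opposite to that of TARS1, and its call was lost without shControl 2 (−0.38, adjusted p = 0.059).

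Genes that act around the synthetases were read from hand-written lists, and their counts stand beside 22.6% higher and 23.6% lower among all tested genes. The amino-acid response list held ATF4, genes of amino acid synthesis and transport, and stress effectors. Of its 18 genes, 14 were higher and 1 was lower, with a median log2 fold change of 1.12. ATF4 was at 188 and 185 CPM in shControl and at 406 and 381 CPM in shYEATS2, a log2 fold change of 1.08 ± 0.06 (adjusted p = 5.3e-25). CHAC1, which degrades glutathione, rose by 2.97 on the log2 scale, ATF3, a stress-induced transcription factor, by 2.48 and SESN2, a leucine sensor, by 2.28. The lower one was ATF5 (−1.01), named after its values were seen. Among 6 genes for eIF2 alpha kinases and phosphatase subunits, 2 were higher and 2 lower, beside 46.2% of all tested genes called in either direction. PPP1R15A, the inducible subunit that directs the phosphatase to eIF2 alpha, rose by 1.49 and its constitutive relative PPP1R15B by 0.48, while EIF2AK2, which senses double-stranded RNA, fell by 0.25.

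Of 15 genes of tRNA maturation and export 3 were higher and 5 lower, close to the 46.2% of all tested genes called in either direction, with a median log2 fold change of −0.03. XPOT, which exports mature tRNA from the nucleus, was at 195 and 194 CPM in shControl and at 288 and 300 CPM in shYEATS2, a log2 fold change of 0.59 ± 0.06 (adjusted p = 2.2e-13). Of the subunits of RNase P, which trims the 5′ end of tRNA, RPP30 was at 0.61 and POP1 at −0.63, both called. Of 9 tested mitochondrial translation factors 1 was higher and 4 were lower, also near 46.2%, with a median of −0.13. Lower were, for example, the elongation factors TUFM (−0.36) and GFM1 (−0.32) and the initiation factor MTIF3 (−0.30). None of the 3 genes of the amidotransferase that completes glutamine charging in mitochondria, after EARS2 has loaded glutamate, passed the test, and none of 3 editing factors did. DESeq2 and limma-voom called 0 genes of either list, and at an unadjusted p under 0.05 edgeR gave 1 amidotransferase gene and 0 editing factors.

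**Figure D5:**
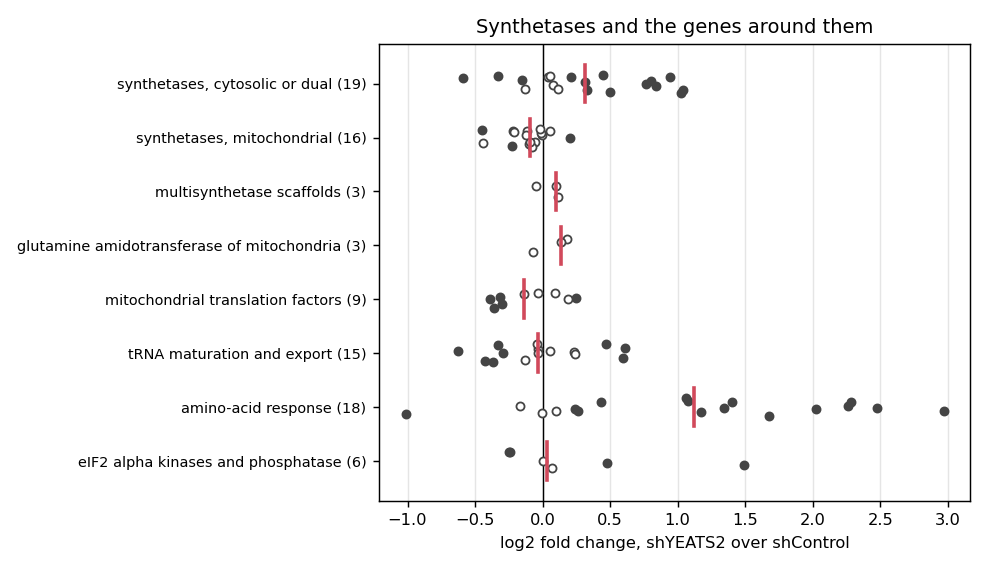
Log2 fold change (shYEATS2 over shControl) of every tested gene in the 2 synthetase sets and 6 hand-written lists of genes around them, with the number tested in parentheses; filled points passed the edgeR test, open points did not, and the bar marks the median. The median is 1.12 for the amino-acid response, 0.31 for cytosolic or dual synthetases and −0.10 for mitochondrial synthetases (0.039 with library totals).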

How the data were processed

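Stranded poly(A) libraries of BICR10 cells were read in pairs, each end 150 bp long. The deposited counts were made by the authors with STAR (alignment to GRCh38) and HTSeq, as whole-number read counts per Ensembl gene with no normalization. Neither the release of the annotation nor HTSeq's strand setting is given in the sources used here. Tallies of pairs given to no gene or to several genes (ambiguous pairs were 4.31 to 4.61% of all) were left out of library sizes.

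Genes were kept by filterByExpr, TMM-scaled, and fitted with edgeR 4.0.16 in R 4.3.3 (quasi-likelihood test, robust), with Benjamini-Hochberg adjustment over 17058 genes and a call at an adjusted p under 0.05. The study's methods used DESeq2, which was run here as an alternative (version 1.42.0), as was limma-voom (limma 3.58.1). Standard errors are the log2 fold change divided by the square root of the F statistic, and the error of a pair difference treats both genes as independent. Positions and lengths are from GENCODE 44, and promoter sequences from RefSeq on GRCh38.p14. Of the 60623 genes, 60295 had an identifier in GENCODE 44. The scripts were tested on simulated data. The members and all lists were chosen with earlier results of these data known, so counts over a list are descriptions and no test was run on a list.

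Some members are not reported here by name, but they enter every count, median and sum. Full values were given for the 8 cytosolic or dual and up to 5 mitochondrial members called with the largest change, members called against most of their compartment, pairs with opposite calls, HARS1, HARS2, GARS1, KARS1, EPRS1 and TARS3. In the related lists up to 3 genes called with a mean of at least 10 CPM were named, plus ATF4 and XPOT.

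Replicate libraries correlated at 0.994 (shControl) and 0.989 (shYEATS2), against at most 0.972 between groups, and they varied beyond Poisson noise (chi-square over its degrees of freedom, 6.39 and 5.82). The common biological coefficient of variation was 4.95%. Alternatives were other scalings, filters, tests and thresholds, thinning to 11334133 counts, a replicate block and leaving out each library; canonical transcript length and sums scaled by library totals were added after seeing the data.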

Additional observations from a re-analysis of the deposited data

How the results depend on the processing

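No result reversed its call. Of the 19 cytosolic or dual members, 2 were higher and 0 lower by at least 2-fold, 15 were higher with library totals alone, and otherwise 10 to 12 were higher and 2 to 4 lower. Their median log2 fold change was 0.45 with library totals alone, 0.26 with no filter on low counts and 0.24 to 0.35 with 1 library left out (0.24 without shControl 1). Of the 16 tested mitochondrial members, 0 were higher with no filter on low counts, with DESeq2, at an adjusted p under 0.01 and at 2-fold, and 0 to 1 with 1 library left out (0 without shControl 1, shControl 2 or shYEATS2 2). The number lower was 1 with library totals, 1 with DESeq2, 0 at 2-fold and 1 to 4 with 1 library left out (1 without shControl 2, 4 without shYEATS2 2). Their median was 0.039 with library totals, −0.084 with upper quartile scaling, −0.14 with no filter, −0.10 after thinning and −0.14 to −0.094 with 1 library left out (−0.14 without shYEATS2 1). With library totals the median of all tested genes was 0.13, and FARSA, KARS1, LARS1 and RARS1 gained a call as higher. The causes of the other changes were not tested.

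AARS1, GARS1, SARS1, YARS1, MARS1, CARS1, TARS1, IARS1, WARS1, FARSB and QARS1 kept their calls in every alternative fit. HARS1 also lost its call with library totals, DESeq2 size factors, upper quartile scaling, DESeq2 and thinning, HARS2 with no filter and DESeq2, VARS1 with no filter, and TARS3 with library totals, DESeq2 and thinning. Across all genes, DESeq2 called 2820 higher and 2949 lower, and leaving out shControl 1 gave 2604 and 3062.

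No pairing by replicate number was seen, since the deviations of same-numbered libraries correlated at −0.018. With a replicate block 11 cytosolic or dual members were higher and 4 lower, NARS1 being added, and the mitochondrial counts stayed at 1 and 3, with medians of 0.32 and −0.10.

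Leaving out a library leaves its group with 1, which is then assumed to vary like the other group. Precision was lowest for AARS2, FARS2, MARS2, PARS2, SARS2, WARS2 and YARS2, the 7 members with a standard error above 0.1.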
